A study of Mus musculus with 2 samples.

Results

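The 10 genes described here, Krt8, Krt18, Dsp, Jup, Epcam, Cldn1, Cldn2, Cldn3, Ocln and Tjp1, encode epithelial keratins and proteins of desmosomes and tight junctions. They were chosen by name, with their values in these libraries already known, from the 22423 genes of the count table, and all 10 had a row. The labels describe total RNA of whole cerebellum at postnatal day 3 on the C57BL/6 strain, with 1 sample labelled Prdm16fl/fl (floxed alleles, the control) and 1 labelled as a conditional Prdm16 knockout (cKO). The Cre driver, the deleted exons, the sex and the number of animals behind each sample are not stated in the labels. The table holds 1 column of read counts per genotype, treated as 1 library each, although the design text speaks of triplicates. Differences are therefore between 2 libraries, have no replicate check and carry no p-value. Bounds in parentheses are 95% intervals for counting error only.

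Epithelial sheets are held together by several kinds of junction. Keratins 8 and 18 are the type II and type I partners that form the intermediate filaments of simple, single-layered epithelia, and desmosomes anchor such filaments to the membrane through desmoplakin (Dsp) and plakoglobin (Jup). Tight junctions seal the space between cells: claudins and occludin (Ocln) span the membrane, and the scaffold protein ZO-1 (Tjp1) ties them to actin. In the brain, the choroid plexus is a simple epithelium whose tight junctions form the barrier between blood and cerebrospinal fluid, while the vascular barrier rests on other claudins, mainly Cldn5.

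The upstream sequences of the lower members were compared because several of these genes were lower together. The 150 bases upstream of the annotated start are shown for the 5 members with the lowest cKO-to-control ratios, from RefSeq promoter windows on GRCm38.p6, a later mouse build than the mm9 of the submitters' processing notes. Capitals mark E boxes (CANNTG) and the TATA box letters TATAAA, searched on both strands, and a line without capitals holds neither in this stretch.
Krt18 (chr15:102028066-102028215, plus strand): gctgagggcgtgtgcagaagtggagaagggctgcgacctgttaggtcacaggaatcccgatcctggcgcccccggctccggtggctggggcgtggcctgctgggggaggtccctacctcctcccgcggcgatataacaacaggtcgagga
Krt8 (chr15:102004343-102004492, minus strand): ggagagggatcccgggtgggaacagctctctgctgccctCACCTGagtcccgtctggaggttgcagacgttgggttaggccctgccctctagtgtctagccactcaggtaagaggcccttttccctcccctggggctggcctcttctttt
Dsp (chr13:38151144-38151293, plus strand): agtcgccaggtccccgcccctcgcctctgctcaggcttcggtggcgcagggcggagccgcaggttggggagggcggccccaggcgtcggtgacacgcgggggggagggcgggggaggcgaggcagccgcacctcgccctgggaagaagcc
Cldn1 (chr16:26371840-26371989, minus strand): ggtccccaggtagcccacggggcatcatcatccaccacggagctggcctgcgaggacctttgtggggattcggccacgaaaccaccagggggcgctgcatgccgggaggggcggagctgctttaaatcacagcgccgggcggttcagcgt
Cldn2 (chrX:139800658-139800807, plus strand): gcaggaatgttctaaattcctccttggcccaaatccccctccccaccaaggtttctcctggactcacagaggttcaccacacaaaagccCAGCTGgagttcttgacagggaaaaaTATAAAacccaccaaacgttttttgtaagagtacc

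RefSeq windows of 300 bases (250 before to 50 after the start) were found for all 10 genes, 11 windows in all because Ocln has 2. An E box occurred in all 8 windows of the 7 members that were lower in the cKO library, and in 72.3% of all 32851 windows. TATAAA occurred in 2 of the 8, those of Krt8, where it overlaps the start, and Cldn2, against 13.6% of all windows. The Grainyhead-type letters AACNNGTT, named for a family of epithelial transcription factors, were in 0 of the 8 and in 4.20% of all windows. Of the 3 windows of Jup, Epcam and Tjp1, 1 held an E box and 0 held TATAAA or AACNNGTT. The 2 Ocln windows share bases, and nothing is read from these motif counts. The GC content of the 8 windows ran from 51.3% to 73.0% and their CpG number from 5 to 27, with medians of 52.7% and 7 over all windows. The starts of Krt8 and Krt18 lie 23.9 kb apart on chromosome 15 and the genes run away from each other, with no other compared protein-coding gene between them.

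Gene reads numbered 18600299 for the control library and 17501279 for that of the cKO. Prdm16, the targeted gene, had 315 control and 118 cKO reads, a log2 ratio of -1.30 (-1.62 to -0.99). Cerebellar markers were present in both libraries, and 8 of 8 passed in neither direction, with log2 ratios from -0.02 for Zic2 (8272 and 7537 reads) to 0.71 for Pcp2 (367 and 552). Choroid plexus markers separated the libraries: 15 of 16 were lower in the cKO and 0 were higher, with log2 ratios from -8.47 for Ttr to -0.87 for Otx2 and summed levels of 6175 and 191 CPM (reads scaled to library size). None of the 16 was at 0 in either library, and some of them, such as Tmem72 and Prr32, entered the list with their low ratios known. Xist had 14779 control and 21 cKO reads, while Ddx3y, Eif2s3y, Kdm5d and Uty together had 7 and 2352. The genotype and this female and male pattern cannot be told apart here.

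Among the 10 genes, 7 were lower in the cKO library, 0 were higher and 3 passed in neither direction. A gene counted as lower or higher when it had at least 10 reads over both libraries, differed by at least 2-fold and had an interval that excluded equality. Over all 18787 compared genes, 2.2% were lower and 1.21% higher by this rule, and since the members were chosen with this contrast known, nothing is read from the comparison of these shares. The 7 lower members together fell from 91.3 to 13.6 CPM, to 14.9% of the control, and the other 3 together stood at 190 and 189 CPM. In whole tissue, fewer cells of a type and less RNA per cell cannot be told apart. The choroid plexus markers were lower over the same pair of libraries, and their part in the values below was not tested.

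**Figure D1:**
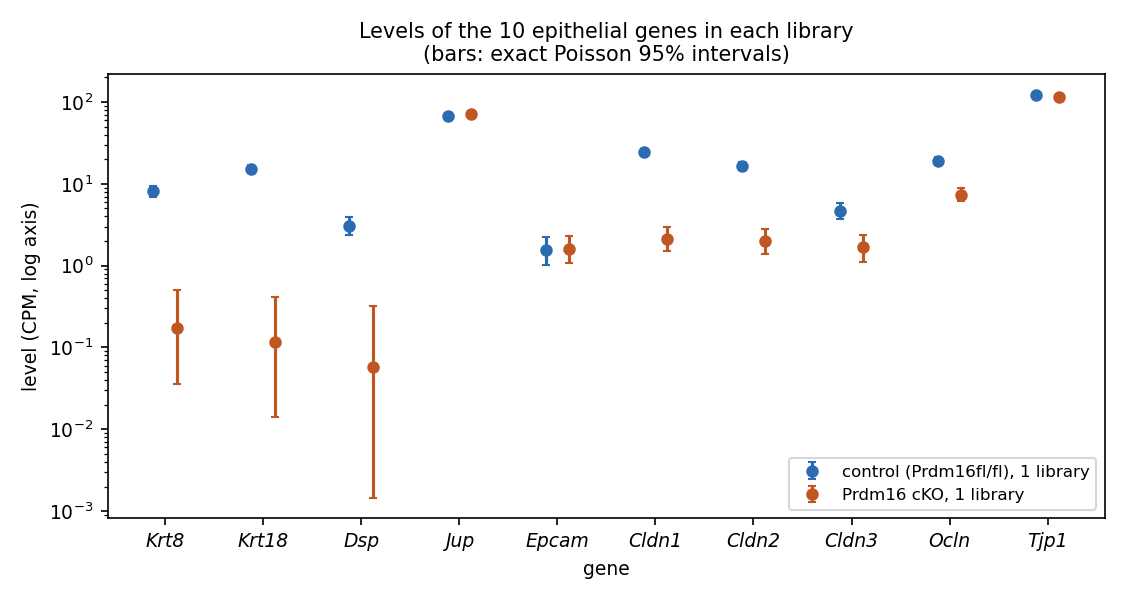
Level of each of the 10 genes in CPM on a log axis, with 1 control library (blue) and 1 cKO library (orange) and exact Poisson 95% intervals. Krt8, Krt18 and Dsp stood between 3.09 and 15.3 CPM in the control and between 0.0577 and 0.173 CPM in the cKO, whereas the intervals of Jup, Epcam and Tjp1 overlapped.

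The keratin pair of simple epithelia was nearly absent from the cKO library, with 440 control and 5 cKO reads in all. Krt18 had 288 control reads and 2 cKO reads. Its level was 15.3 CPM (13.6 to 17.2) in the first library and 0.115 CPM (0.0140 to 0.417) in the second, which is 133-fold lower (log2 -7.05, -10.10 to -5.19) with bounds of 36.4-fold and 1101-fold, and the 5th lowest ratio of all compared genes. Krt8, its filament partner, had 152 and 3 reads. These are 8.09 CPM (6.85 to 9.48) and 0.173 CPM (0.0357 to 0.506), so the log2 ratio of Krt8 was -5.54 (-7.84 to -3.97), 46.7-fold lower. The control intervals lay far above the cKO intervals for both, and since 5 cKO reads set the ratios, the order of the pair is within counting error. Per kilobase of exon in GENCODE M21, Krt18 stood 2.58 times as high as Krt8 in the control, at 10.7 against 4.13 CPM per kb. Krt8-ps, an annotated pseudogene, can share reads with Krt8, and the labels do not say how such reads were counted.

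Most other keratins passed in neither direction. Of 25 keratin genes with a row, 17 had at least 10 reads, and 3 of these were lower, 1 higher and 13 neither, with a median log2 ratio of 0.25 against 0.01 for all compared genes. Without Krt8 and Krt18, 1 of 15 was lower and 1 higher, with a median of 0.35. The shares over all compared genes were 2.2% lower and 1.21% higher. Krt7, a further type II keratin of simple and ductal epithelia, was lower with 27 and 6 reads (-2.05, -3.62 to -0.75). Krt19, a type I keratin of simple epithelia, had 51 and 60 reads (0.35, -0.21 to 0.92), and its interval lay above that of Krt7. The keratin higher by the rule was Krt17, at 1 and 9 reads (log2 3.29, 0.44 to 8.74), a call lost with 99% intervals and at a minimum of 50 reads.

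The keratins of stratified epithelium, the many-layered lining of skin and mouth, were read in both libraries at low levels. Krt1 had 214 and 235 reads (0.25, -0.02 to 0.53) and its partner Krt10 had 114 and 159 (0.60, 0.24 to 0.96). Outside the list of stratified markers, the hair follicle keratin Krt73 had 85 and 128 (0.71, 0.30 to 1.12), and Krt222 had 256 and 237 (0.01, -0.25 to 0.27). The list of stratified markers itself had 0 of 5 compared genes past the rule and summed to 24.2 and 29.1 CPM. Krt5, Krt14, Ivl and Dsg3, also on that list, had no row in the table. The remaining compared keratins, Krt77, Krt80, Krt87, Krt71, Krt26, Krt25, Krt72 and Krt28, had 6 to 26 control reads and log2 ratios from -1.05 to 1.20 with intervals that included 0.

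Intermediate filaments of other families stood close to equality. Of 13 such genes 0 passed the rule, with a median of -0.01 and a range from -0.54 for the peripherin gene Prph (30 and 19 reads) to 0.29 for the lamin gene Lmnb1. Gfap, the astrocyte filament, stood next lowest at -0.41, and Nes, the filament of neural progenitors, next highest at 0.25. Vim, the filament of glia and mesenchyme, had 18244 and 17911 reads (0.09, 0.06 to 0.12).

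The desmosome members Dsp and Jup differed from each other. Dsp, the plakin that links keratin filaments to the junction plaque, had 58 control reads and 1 cKO read. Levels were 3.09 CPM (2.34 to 3.99) and 0.0577 CPM (0.0015 to 0.322), with Dsp at log2 -5.74 (-11.07 to -3.20) or 53.4-fold lower with bounds of 9.22-fold and 2147-fold. Jup, the armadillo protein plakoglobin that joins desmosomal cadherins to Dsp and also sits in adherens junctions, had 1272 and 1224 reads. Its levels were 67.7 CPM (64.0 to 71.5) and 70.7 CPM (66.8 to 74.7), a log2 ratio of 0.06 (-0.05 to 0.18). The intervals of Jup overlapped while those of Dsp did not. Per kilobase the control level of Jup, 10.5 CPM per kb, was far above that of Dsp, 0.319.

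Of the 18 listed desmosome genes 12 had a row and 11 had enough reads, with 5 lower, 0 higher and 6 neither and a median of -0.16. Without Dsp and Jup, 4 of 9 were lower and 0 higher, beside 2.2% lower and 1.21% higher over all compared genes. Beside Dsp, the lower genes were Perp, a small membrane protein of desmosomes, with 351 and 132 reads (-1.29, -1.59 to -1.0002), and the plakophilins Pkp1 (16 and 5 reads, -1.56, -3.36 to -0.05) and Pkp3 (9 and 1, -3.05, -8.51 to -0.20). The cadherin Dsg2 had 24 and 10 reads (-1.14, -2.37 to -0.03). With 99% intervals 2 desmosome genes were lower, Dsp and Perp, and the calls of Pkp1, Pkp3 and Dsg2 were lost. Among the rest, the plakophilins Pkp4 (2616 and 2281 reads, -0.08, -0.16 to 0.00) and Pkp2 (31 and 27) and the envelope protein Evpl (141 and 116) lay near 0. The cadherin Dsc2 had 79 and 96 reads (0.40, -0.05 to 0.85) and the plakin Ppl 5 and 9 (0.97, -0.77 to 2.89). Hemidesmosome genes, which fix epithelia to the basement membrane, had 0 of 6 past the rule, from the integrin gene Itga6 (-0.29) and Dst (-0.22) to Itgb4 (0.35) and Col17a1 (0.38).

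The claudins among the 10 genes were all lower, by different amounts. Cldn1, a sealing claudin of many epithelia, had 456 and 37 reads, which are 24.3 CPM (22.1 to 26.6) and 2.14 CPM (1.504 to 2.94). Its log2 ratio was -3.51 (-4.03 to -3.02), 11.4-fold lower. Cldn2, which forms pores for cations and water and is known from the choroid plexus epithelium, had 313 and 35 reads, which are 16.7 CPM (14.9 to 18.6) and 2.02 CPM (1.41 to 2.81). The log2 ratio of Cldn2 was -3.04 (-3.59 to -2.54), 8.24-fold lower. These intervals overlap each other, so the order of Cldn1 and Cldn2 is within counting error.

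Cldn3, a further sealing claudin, had 88 and 29 reads, equal to 4.68 CPM (3.75 to 5.77) and 1.67 CPM (1.12 to 2.40), and a log2 ratio of -1.48 (-2.14 to -0.86). Its interval lay above those of Cldn1 and Cldn2, and 35.8% of the control level was left in the cKO, against 8.81% for Cldn1 and 12.1% for Cldn2. Per kilobase the 3 claudins were at like control levels, 5.01 CPM per kb for Cldn1, 5.01 for Cldn2 and 3.72 for Cldn3. Cldn2 lies on the X chromosome. The 637 compared X-linked genes other than Xist had a median log2 ratio of -0.04, and 3.92% of them were lower, against 2.2% of all compared genes.

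In the family as a whole, 4 of 13 compared claudins were lower, 1 was higher and 8 were neither, with a median of 0.05. Without Cldn1, Cldn2 and Cldn3, 1 of 10 was lower and 1 higher, with a median of 0.23. Over all compared genes 2.2% were lower and 1.21% higher. Cldn9 was the lower gene outside the 10, with 22 and 2 reads (-3.34, -6.47 to -1.32). The claudins of other brain cells stood near equality. Cldn5, of endothelium, had 1954 and 1866 reads (0.05, -0.04 to 0.14). Cldn11, of oligodendrocytes, had 1073 and 1185 (0.26, 0.14 to 0.38) and the astrocyte-listed Cldn10 had 27 and 30 (0.27, -0.53 to 1.08). The endothelial, oligodendrocyte and astrocyte marker lists had 0 genes past the rule of 10, 8 and 8. Cldn12 (318 and 266 reads), Cldn23 (19 and 20), Cldn19 (32 and 40), Cldn6 (8 and 7) and Cldn20 (6 and 7) passed in neither direction. Cldn15, a pore-forming claudin, was higher with 9 and 24 reads (1.53, 0.38 to 2.82), a call lost at a minimum of 50 reads.

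**Figure D2:**
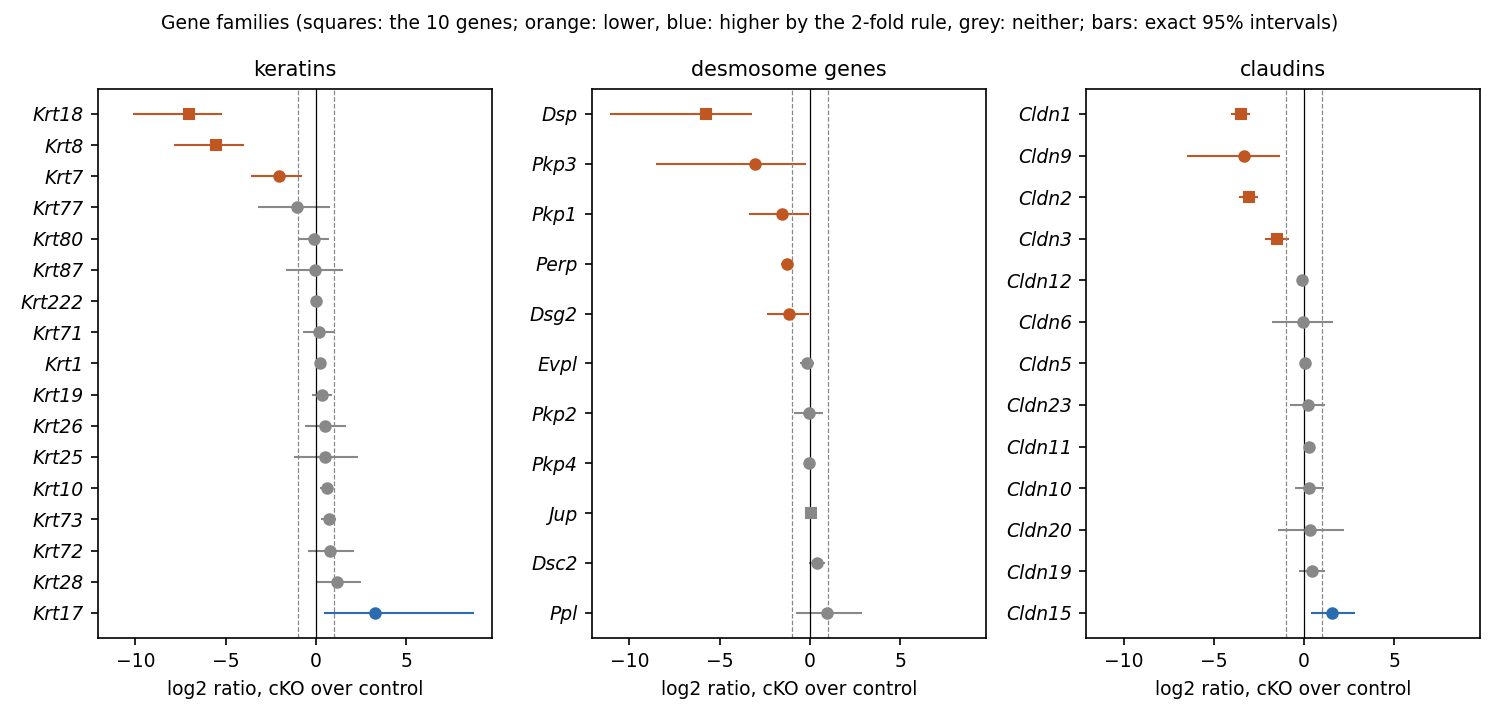
Log2 ratio of the cKO over the control library for every keratin, desmosome gene and claudin with at least 10 reads, with exact 95% intervals, where squares mark the 10 genes, orange marks lower, blue higher and grey neither by the 2-fold rule. In each family a few genes lie far to the left (Krt18 at -7.05, Dsp at -5.74, Cldn1 at -3.51) while the median stays between -0.16 and 0.25.

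Occludin and its scaffold differed from each other. Ocln had 361 and 128 reads, equal to 19.2 CPM (17.3 to 21.3) and 7.39 CPM (6.17 to 8.79), and a log2 ratio of -1.38 (-1.68 to -1.08). This was a 2.60-fold lower level with bounds of 2.12-fold and 3.20-fold, and 38.5% of the control level was left. Tjp1 had 2279 and 2019 reads, 121 CPM (116 to 126) against 117 CPM (112 to 122), and a log2 ratio of -0.06 (-0.14 to 0.03). The libraries overlapped for Tjp1 and not for Ocln. Per kilobase Tjp1 was the highest of the 10 genes in the control, at 15.5 CPM per kb, and Dsp the lowest.

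Other tight junction partners mostly shifted less than 2-fold. Of 26 listed genes 2 were lower, 1 was higher and 23 were neither, with a median of -0.14. Without Ocln and Tjp1, 1 of 24 was lower and 1 higher, beside 2.2% lower and 1.21% higher over all compared genes. Intervals lay below 0 for 11 genes and above 0 for 3, a looser criterion than the 2-fold rule. The share of all compared genes that meet this criterion was not computed, so nothing is read from these 2 counts. Beside Ocln, the polarity gene Crb3 was lower with 104 and 45 reads (-1.09, -1.63 to -0.57). Its exons share 14 bases with Dennd1c on the other strand, and reads of the pair cannot be assigned without strand. Tjp3, the ZO-3 scaffold, had 98 and 53 reads (-0.77, -1.28 to -0.27) and Cgnl1, the junction-to-cytoskeleton linker paracingulin, 842 and 511 (-0.60, -0.76 to -0.44). Jam3, a junctional adhesion molecule, was the next to highest at 0.27 (0.00 to 0.53), with Jam2 at -0.04. The tricellular junction gene Ildr1 was higher with 11 and 22 reads (1.12, 0.01 to 2.31), a call that 2 of the 3 other scalings removed.

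Epcam, a membrane glycoprotein used as a general epithelial marker, was read rarely in both libraries. It had 29 and 28 reads, equal to 1.54 CPM (1.03 to 2.22) and 1.62 CPM (1.07 to 2.34), and a log2 ratio of 0.07 (-0.74 to 0.87). Differences inside this interval were not detectable at this depth. The other genes of epithelial identity, apart from Spint2 and Cdh1, had at most 59 control reads, and 3 of the 20 listed had no row. Of 14 compared genes 1 was lower and 13 were neither, beside 2.2% lower and 1.21% higher over all compared genes. The median was -0.49 and log2 ratios were below 0 for 11, with intervals below 0 for 3 and above 0 for 1. The share of all compared genes below 0 was not computed, so nothing is read from these counts of direction.

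The lower epithelial identity gene was the protease inhibitor Spint1, with 32 and 13 reads (-1.18, -2.24 to -0.21), a call lost with 99% intervals and at a minimum of 50 reads. Rab25, an epithelial recycling GTPase, had 12 and 4 reads (-1.47, -3.56 to 0.26) and the zinc finger factor Ovol1 10 and 4. The protease inhibitor Spint2 had 880 and 571 reads (-0.51, -0.66 to -0.35).

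Classical cadherins had unlike ratios in the same libraries. Cdh3, P-cadherin, had 152 and 13 reads, or 8.09 against 0.751 CPM, and a log2 ratio of -3.43 (-4.37 to -2.61). Cdh1, E-cadherin, had 390 and 499 reads (0.47, 0.28 to 0.67) and passed in neither direction. Cdh1 was also on the meningeal fibroblast list, where 9 of 9 genes, Cdh1 included, had intervals above 0 and a median of 0.43, with summed levels of 1285 and 1678 CPM. Of these 9 genes 0 passed the 2-fold rule, and 7 of 8 cerebellar markers also had intervals above 0. The share of all compared genes with an interval above 0 was not computed, so nothing is read from these interval counts. The part of meningeal tissue in the Cdh1 value was not tested. Of 14 adherens junction genes Cdh3 alone passed the rule, beside 2.2% lower and 1.21% higher over all compared genes, and the list median was -0.08. The actin linker Vcl stood next lowest at -0.47 and Nectin2 next to highest at 0.21.

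**Figure D3:**
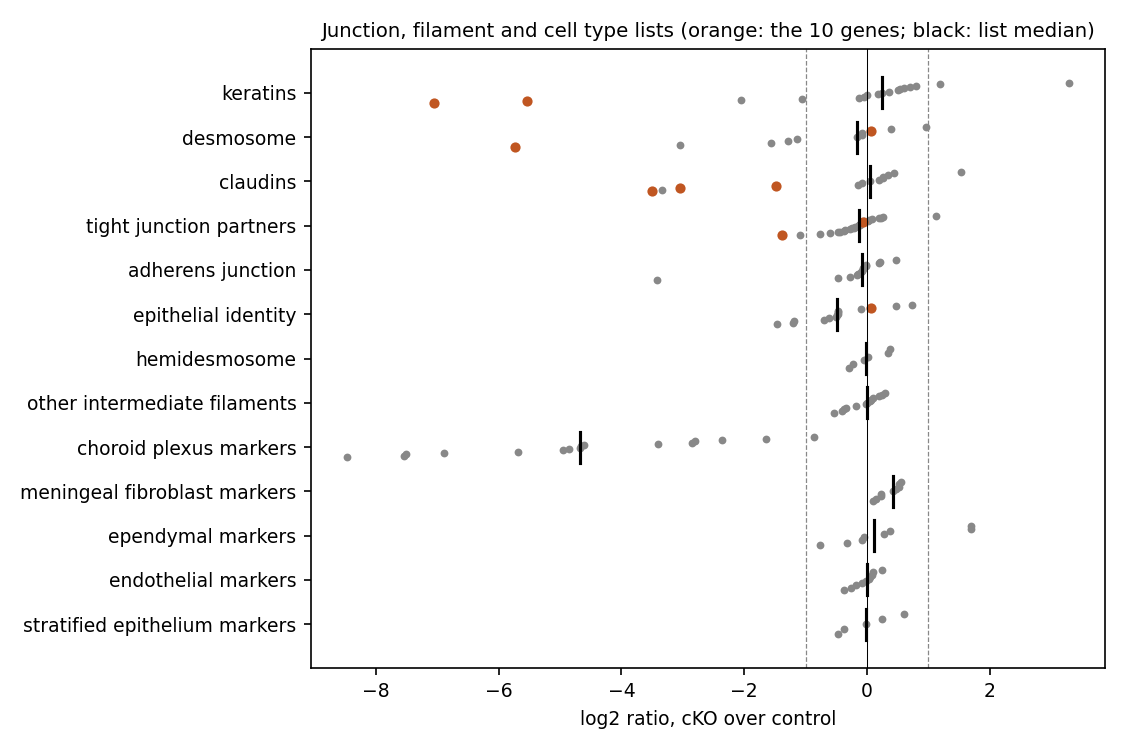
Log2 ratio of each gene with at least 10 reads (points) in each junction, filament or marker list, with the list median as a black bar, the 10 genes in orange and 2-fold as dashed lines. The choroid plexus median is -4.67, the epithelial identity median -0.49, and the other lists have medians between -0.16 and 0.43.

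The genes next to the lower members on the chromosome did not pass the rule. The nearest compared protein-coding genes on either side of the 7 lower members, without the members themselves, were 12 genes, and 0 of these passed. Since 2.2% of all compared genes were lower and 1.21% higher, nothing is read from this count. Log2 ratios ran from -1.05 (Krt77, 9 and 4 reads) to 0.46 (Abhd11, 0.24 to 0.68). Tbc1d8b, 47.4 kb from Cldn2, stood at -0.51 (-1.01 to -0.02). Snrnp48, 6.36 kb from Dsp, stood at 0.23, and Morc4, 10.2 kb from Cldn2, at 0.31. Gtf2h2, 3.93 kb from Ocln, stood at -0.11. Exons of Krt8, Dsp and Cldn3 overlap genes on the other strand, of which only Wbscr25, with 3 and 3 reads and 40 bases shared with Cldn3, had a row. Distances and exons are those of GENCODE M21 on GRCm38.

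The share of the control level left in the cKO differed among the lower members. It was 0.754% of the control level for Krt18, 1.87% for Dsp and 2.14% for Krt8, and the intervals of these 3 log2 ratios overlapped. Cldn1 and Cldn2 followed at 8.81% and 12.1%, and the upper bound of Krt18 (-5.19) lay below the lower bounds of both (-4.03 and -3.59), whereas the intervals of Krt8 and Dsp reached that of Cldn1. Cldn3 and Ocln came last at 35.8% and 38.5%, with intervals that overlapped each other and lay above those of Cldn1 and Cldn2. The log2 ratios of the choroid plexus markers spanned a wider range, -8.47 to -0.87, than those of the lower members, -7.05 to -1.38. The markers ran from Ttr with 99032 and 257 reads (0.282% left) and Prr32 with 198 and 1 (-7.51, -12.82 to -5.02) to Enpp2 with 7625 and 2256 (-1.64, -1.71 to -1.57) and Otx2 with 1010 and 509 (-0.87). Some of them, Prr32 included, were listed with their low ratios known, so nothing is read from the overlap of these ranges. Ependymal markers had 2 of 8 genes higher, Ccdc153 (39 and 116 reads, 1.69) and Tmem212 (7 and 21 reads, 1.70), and 0 lower. Over all compared genes 1.21% were higher. Log2 ratios of these 8 markers were above 0 for 4 and below 0 for 4, the lowest being Cfap126 (163 and 88 reads, -0.77, -1.16 to -0.39).

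**Figure D4:**
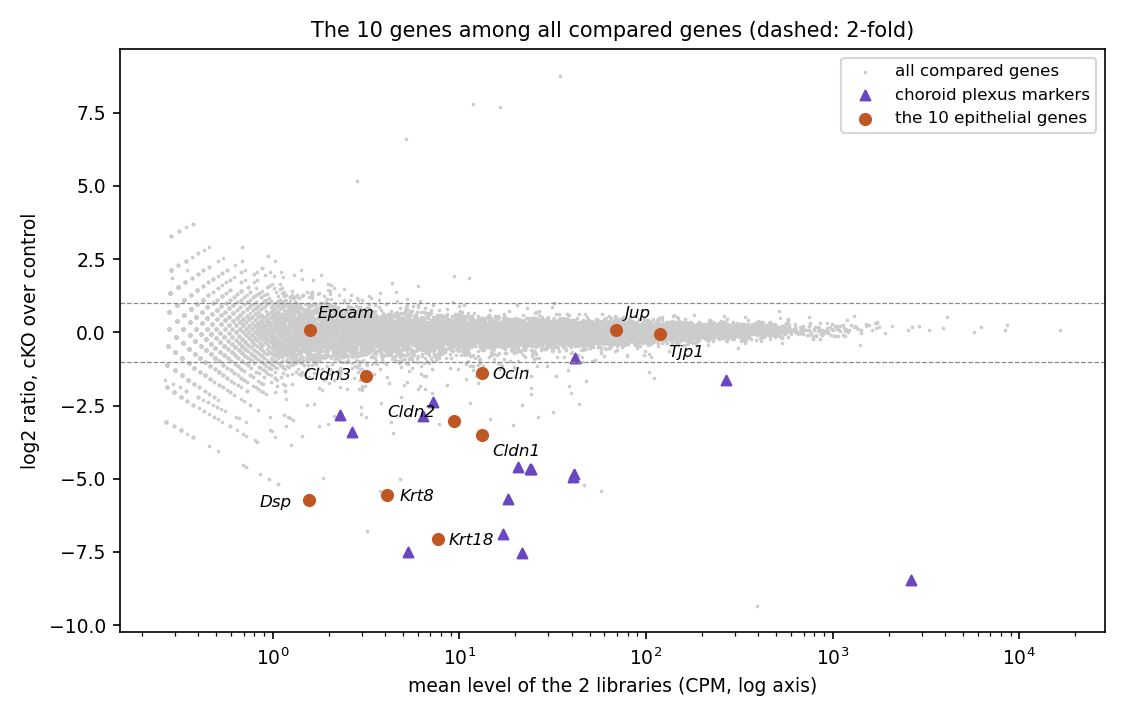
Log2 ratio of the cKO over the control against the mean level of the 2 libraries in CPM on a log axis, for 18787 compared genes (grey), 16 choroid plexus markers (triangles) and the 10 genes (orange), with 2-fold as dashed lines. The 7 lower members, from -7.05 to -1.38, lie below the lower dashed line and Jup, Epcam and Tjp1 inside the band. The ratios of the triangles run from -8.47 to -0.87.

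In the authors' deposited table the same 7 genes carried the mark of significance and Jup, Epcam and Tjp1 did not. The authors' deposited table marked 622 genes in all, each at least about 2-fold different, and gave Krt18 a log2 fold change of -7.08 and Ocln one of -1.41. Which test lies behind the mark is not stated there. That table holds the same 2 columns of counts as used here, so the match is not a separate check.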

How the data were processed

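The deposited table holds raw read counts per gene for 1 control and 1 cKO library, with the authors' CPM values (a count of 0 replaced by 0.5), fold ratio, log2 fold change, p-value and adjusted p, per the file headers. Per the submitters' processing notes TopHat2 2.0.12, Bowtie2 2.2.3, HTSeq 0.6.0 and build mm9 were named, with no role stated; strand use is not stated there. Libraries were scaled with the TMM method (trimmed mean of M values) of edgeR 4.0.16 (R 4.3.3), with factors of 1.01 and 0.990. CPM values printed are from these scaled counts.

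The minimum of 10 reads, summed over the libraries, left 18787 of 22423 genes. Ratios carry exact binomial (Clopper-Pearson) and levels exact Poisson 95% intervals, computed with Python 3.11.15 and scipy 1.17.1; these cover counting error only, and reads are not independent molecules. With 1 library per genotype no edgeR or DESeq2 test was possible. A count of 0 stood at 3 reads. The ratio code was tested on simulated data. Exon lengths came from GENCODE M21 by Ensembl ID, for 22383 genes including all 10 members.

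The members and lists were chosen with earlier results of these data known. Named were the 10 members, Prdm16, all compared keratins, claudins and desmosome genes, the extremes of each list and list genes past the 2-fold rule; the cerebellar markers, the neighbouring genes and some further list genes were chosen after their values were seen. Some list genes, 1 list extreme among them, are counted in the lists but not reported here by name. Alternatives were library totals, DESeq2 1.42.0 size factors, upper quartile scaling, minima of 50 reads and 1 read, a 1.5-fold threshold and 99% intervals.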

Additional observations from a re-analysis of the deposited data

How the results depend on the processing

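No paired analysis was possible because each genotype has 1 library, and no library could be left out. The 7 lower and 0 higher members kept those counts under all 7 alternatives, and the 4 scalings moved any log2 ratio by at most 0.03. Of 184 recomputed values 165 stayed within 1.5 times the reported count or inside the reported interval, and 0 changed sign. Most of these values are counts, which cannot change sign, and many were 0 under every setting, so the tally is a weak check. Over all genes, the 228 higher became 425 at 1.5-fold, 119 with 99% intervals and 55 at a minimum of 50 reads, and the 414 lower became 736 at 1.5-fold and 176 at 50 reads. Desmosome genes lower went from 5 to 2 with 99% intervals and to 2 at 50 reads. Epithelial identity genes lower went from 1 to 2 at 1.5-fold and to 0 with 99% intervals or 50 reads. Keratins higher went from 1 to 3 at 1.5-fold and to 0 with 99% intervals or 50 reads, and claudins higher from 1 to 0 at 50 reads. Tight junction partners lower went from 2 to 4 at 1.5-fold. Their 1 higher gene, Ildr1, became 0 with library totals, DESeq2 size factors, 99% intervals or 50 reads. Depth limits the genes with few reads, such as Epcam (29 and 28), Dsp (58 and 1), Cldn9 (22 and 2) and Pkp3 (9 and 1).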
